A study of Mus musculus with 53 samples.

Results

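The oligodendrocyte lineage and its myelin were followed through 37 genes in RNA-seq libraries of 2 laser-captured hypothalamic nuclei, the paraventricular nucleus (PVN) and the arcuate nucleus (ARC), of mice lacking the imprinted gene Nnat. The genes were chosen by name, matched by symbol to the Ensembl identifiers of the count tables, and all 37 were found among the 53379 genes listed. They comprise 3 genes of precursor cells (Pdgfra, Cspg4 and Gpr17), 3 of differentiating cells (Enpp6, Bcas1 and Tspan2), 6 transcription factors, 11 genes of myelin structure, 3 of myelin lipids and 11 other genes of mature oligodendrocytes. The structure and lipid genes together are called the 14 myelin genes.

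All mice were adult C57BL/6 animals, either Nnat+/+ or Nnat+/-p, the latter carrying the null allele from the father. Brains were collected between 13 and 14 weeks of age, an age that the capture methods give for males. Since the maternal copy of Nnat is silent and the allele is null in every cell, loss of Nnat was not limited to oligodendrocytes. Nnat+/-p mice fed chow were divided by body weight, males into non-obese (under 35 g) and obese (over 37 g) and females into non-obese (under 25 g) and obese (over 30 g), whereas males fed a 45% high fat diet (HFD) were not divided. Male PVN libraries comprised 3 Nnat+/+, 4 obese Nnat+/-p and 3 non-obese Nnat+/-p on chow, with 6 Nnat+/+ and 3 Nnat+/-p on HFD. Female PVN libraries, all on chow, comprised 4 Nnat+/+, 3 obese and 3 non-obese Nnat+/-p, and male ARC libraries comprised 2 Nnat+/+, 4 obese and 4 non-obese Nnat+/-p on chow, with 6 Nnat+/+ and 4 Nnat+/-p on HFD. These 49 libraries carry the replicate numbers of their labels. Nothing states which libraries came from separate mice. Replicates 1 and 2 share a body weight in the labels, as do 39 and 40, and 33 male libraries share genotype, diet and body weight with a library of the other nucleus, so p-values measure the spread between libraries only.

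Oligodendrocyte precursors carry the receptor Pdgfra and the proteoglycan Cspg4 (NG2), and committed cells pass through a stage marked by Gpr17, Bcas1 and Enpp6 before they wrap axons. Olig1, Olig2 and Sox10 act through much of the lineage, while Myrf switches on the genes of compact myelin, such as Mbp, Mobp and Mal, and of non-compact myelin, such as Cnp and Mag. In the adult hypothalamus precursors are spread through the tissue and mature cells line fibre tracts at the borders of the nuclei.

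Total counts were 2268021 to 8560199 in male PVN, 6219365 to 30228973 in female PVN and 1479953 to 18058097 in male ARC libraries, and the 37 genes took 0.0548% to 0.152%, 0.0841% to 0.166% and 0.0458% to 0.165% of them. A count of 3 corresponded to 0.338 to 1.09, 0.0716 to 0.417 and 0.279 to 1.86 CPM (counts scaled to library size, with TMM as a correction for library composition); these limits cover counting error only. A median of at least 10 counts in each count table was reached by 31 genes, the others being Aspa, Enpp6, Hapln2, Opalin, Tmem125 and Trf. Nnat stood at 270 to 572 CPM in Nnat+/+ and at 0.324 to 13.6 CPM in Nnat+/-p libraries. The summed PVN neuron markers (Sim1, Avp, Oxt, Crh, Trh) lay between 504.7 and 1965 CPM in male PVN libraries apart from replicate 24, at 145.8 CPM, and replicate 15, which went against its label with 10.1 CPM and a Pomc level of 101 CPM. In the ARC the summed ARC neuron markers (Pomc, Agrp, Npy, Cartpt, Ghrh, Kiss1, Tbx3) ran from 65.9 to 862 CPM, and both Nnat+/+ libraries on chow were low, at 84.4 and 95.3 CPM. Among non-obese chow Nnat+/-p libraries, replicates 39, 40 and 43 were also low, at 99.4, 95.8 and 65.9 CPM, and replicate 38 stood at 189 CPM. Obese chow Nnat+/-p libraries stood at 205 to 221 CPM. Replicates 5, 7 and 35 (low total counts) and 32 (label and count table name different nuclei) were left out.

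Of the 37 genes, 24 had a promoter in the RefSeq table of GRCm38.p6, with 30 windows of 300 bases (250 before and 50 after a start site), and 12 of the 14 myelin genes were among them. The binding motif of MYRF (CTGGCAC or CTGGTAC, both strands) was found in 42.9% of the windows of the myelin genes and in 7.1% of all 32851 windows of the table. It lay in windows of Cnp, Mag, Mog, Hapln2 and Opalin, and the match near Mag falls in 2 windows that overlap. A SOX motif (ACAAAG or ACAATG, both strands) was found in 50% of the myelin gene windows and 28.6% of all windows, and an E box (CANNTG), the general motif of OLIG factors, in 64.3% and 72.3%. The stretches before the start site of 4 myelin genes that carry these motifs are shown, 5′ to 3′ along the gene with MYRF and SOX motifs in capitals, because their levels are described by library below. Mobp, with the smallest p in the ARC diet comparison, holds 6 SOX motifs, Cnp and Mag hold 1 MYRF and 1 SOX motif each, and Mog holds 1 MYRF motif.
Mobp, chr9:120149492-120149706, plus strand: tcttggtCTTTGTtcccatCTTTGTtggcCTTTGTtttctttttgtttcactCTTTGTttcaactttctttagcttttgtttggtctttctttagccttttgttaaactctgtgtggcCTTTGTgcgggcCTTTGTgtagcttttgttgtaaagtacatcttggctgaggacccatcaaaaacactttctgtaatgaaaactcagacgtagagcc
Cnp, chr11:100574689-100574903, plus strand: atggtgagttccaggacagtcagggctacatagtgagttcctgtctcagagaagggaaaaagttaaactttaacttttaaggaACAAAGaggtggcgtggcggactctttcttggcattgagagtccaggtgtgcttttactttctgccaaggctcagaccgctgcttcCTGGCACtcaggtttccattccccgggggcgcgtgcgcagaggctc
Mag, chr7:30914874-30915113, minus strand: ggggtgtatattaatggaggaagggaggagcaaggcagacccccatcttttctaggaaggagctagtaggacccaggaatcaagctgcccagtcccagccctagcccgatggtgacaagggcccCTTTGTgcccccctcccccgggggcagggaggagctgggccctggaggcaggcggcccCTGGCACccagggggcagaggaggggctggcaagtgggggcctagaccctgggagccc
Mog, chr17:37023399-37023648, minus strand: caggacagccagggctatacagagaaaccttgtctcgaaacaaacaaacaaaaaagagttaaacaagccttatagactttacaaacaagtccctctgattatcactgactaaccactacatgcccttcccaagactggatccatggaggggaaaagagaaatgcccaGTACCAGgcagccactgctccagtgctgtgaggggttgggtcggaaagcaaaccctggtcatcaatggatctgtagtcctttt
A match is a description of letters and not a measured binding site. The window of Mal, which was lower on HFD in the ARC as Mobp was, holds neither motif before its start site.

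Per kilobase of exon, Qdpr, an enzyme of tetrahydrobiopterin recycling that neurons also use, had the highest median in male PVN (27.5 CPM per kb), followed by Plekhb1 (23.4), Mbp (20.8) and Cnp (16.5 CPM per kb). In male ARC the order was Plekhb1 (35.9), Mbp (31.6), Qdpr (25.8), Cnp (21.8) and Mal (16.8 CPM per kb), and in female PVN Qdpr (27.25), Mbp (23.6) and Plekhb1 (18.4 CPM per kb) led. The ranges over libraries overlapped for all 36 pairs of neighbours in these orders in each of the 3 tables. Neighbouring genes were not compared within libraries, so their order is not resolved here. At the low end, Enpp6, Tmem125, Aspa and Trf stayed under 1 CPM per kb in median. Trf shares 63.5% and Pllp 54.15% of exon bases with another annotated gene, antisense for Pllp, and the strand setting of the counts is not given in the sources used here, so their counts are uncertain. Among precursor genes, Pdgfra and Gpr17 had medians of 3.97 and 3.80 CPM per kb in male PVN and 4.11 and 3.81 CPM per kb in male ARC, and Cspg4 lay lower, at 1.46 and 0.82 CPM per kb.

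**Figure D1:**
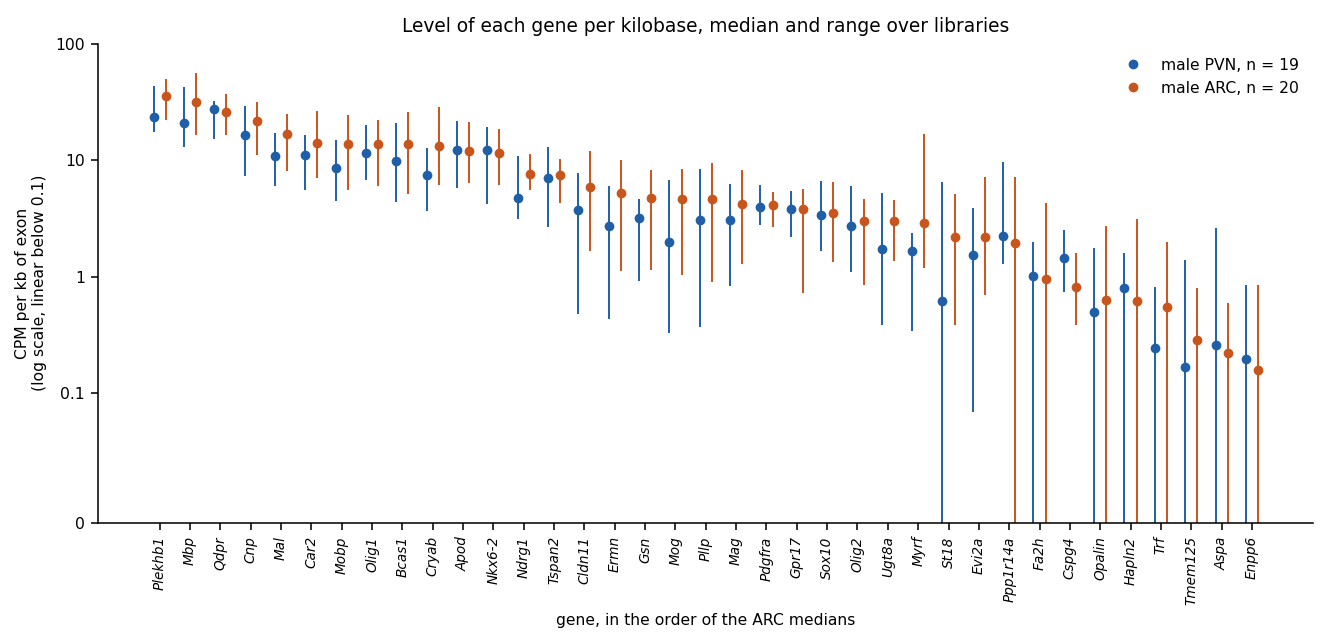
Level of the 37 genes in CPM per kilobase of exon (log scale, linear below 0.1), in the order of the male ARC medians: dots are medians and lines the range over 19 male PVN and 20 male ARC libraries. Plekhb1, Mbp, Qdpr and Cnp lead in ARC and the ranges of neighbouring genes overlap throughout.

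As a mean over genes, the myelin genes ranged more widely between male libraries than the precursor genes did. Gene by gene this held in male PVN only, by the coefficient of variation (SD as a share of the mean). It was 24.95% to 28.4% for precursor and 34.65% to 128% for myelin genes there. The widest value, that of Aspa, came at a median of 11 counts, and the narrowest, that of Mbp, at 966. Precursor genes there had medians of 97 to 245 counts. The part of depth in this spread was not tested. In male ARC the sets overlapped, at 15.9% (Pdgfra) to 35.5% (Cspg4) and 26.95% (Cnp) to 91.0% (Hapln2, with a median of 7.5 counts). The mean log2(CPM + 1) over the 14 myelin genes, the myelin score, ran from 2.48 to 4.12 in male PVN, 2.97 to 4.07 in female PVN and 2.98 to 4.67 in male ARC libraries. The same score over the 3 precursor genes ran from 4.115 to 4.80, 3.74 to 5.07 and 3.89 to 4.94, a narrower range in both male tables and a wider one in females. The female range rests on replicate 10 (non-obese Nnat+/-p), in which Gpr17 had no count. The lowest myelin score in male PVN, 2.48, belonged to replicate 13 (chow Nnat+/+), in which Opalin, Hapln2 and Fa2h had no count.

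In the ARC the myelin score was 4.46 ± 0.05 (SD, n = 2) in chow Nnat+/+, 4.07 ± 0.49 (n = 4) in obese and 3.97 ± 0.38 (n = 4) in non-obese Nnat+/-p, 3.47 ± 0.38 (n = 6) in HFD Nnat+/+ and 3.96 ± 0.36 (n = 4) in HFD Nnat+/-p. The precursor score in the same groups was 4.61 ± 0.16, 4.27 ± 0.36, 4.555 ± 0.385, 4.38 ± 0.27 and 4.34 ± 0.03. The myelin score was thus lowest in HFD Nnat+/+ mice, whose libraries (2.98 to 3.88) all lay below both chow Nnat+/+ libraries (4.42 and 4.49), while the precursor scores of these groups overlapped. In male PVN the myelin score was 3.265 ± 0.69 (n = 3) in chow Nnat+/+, 3.71 ± 0.34 (n = 4) in obese and 3.365 ± 0.29 (n = 3) in non-obese Nnat+/-p, 3.28 ± 0.38 (n = 6) in HFD Nnat+/+ and 3.77 ± 0.12 (n = 3) in HFD Nnat+/-p, and the groups compared overlapped. The chow Nnat+/+ mean includes replicate 15, which went against its label, with a myelin score of 3.79 beside 2.48 and 3.53 in replicates 13 and 14. Precursor scores in male PVN differed little between groups, with means of 4.53 to 4.66. In female PVN the myelin score was 3.50 ± 0.45 (n = 4), 3.63 ± 0.14 (n = 3) and 3.68 ± 0.23 (n = 3) in Nnat+/+, obese and non-obese Nnat+/-p mice, beside precursor scores of 4.49 ± 0.25, 4.90 ± 0.03 and 4.42 ± 0.66.

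**Figure D2:**
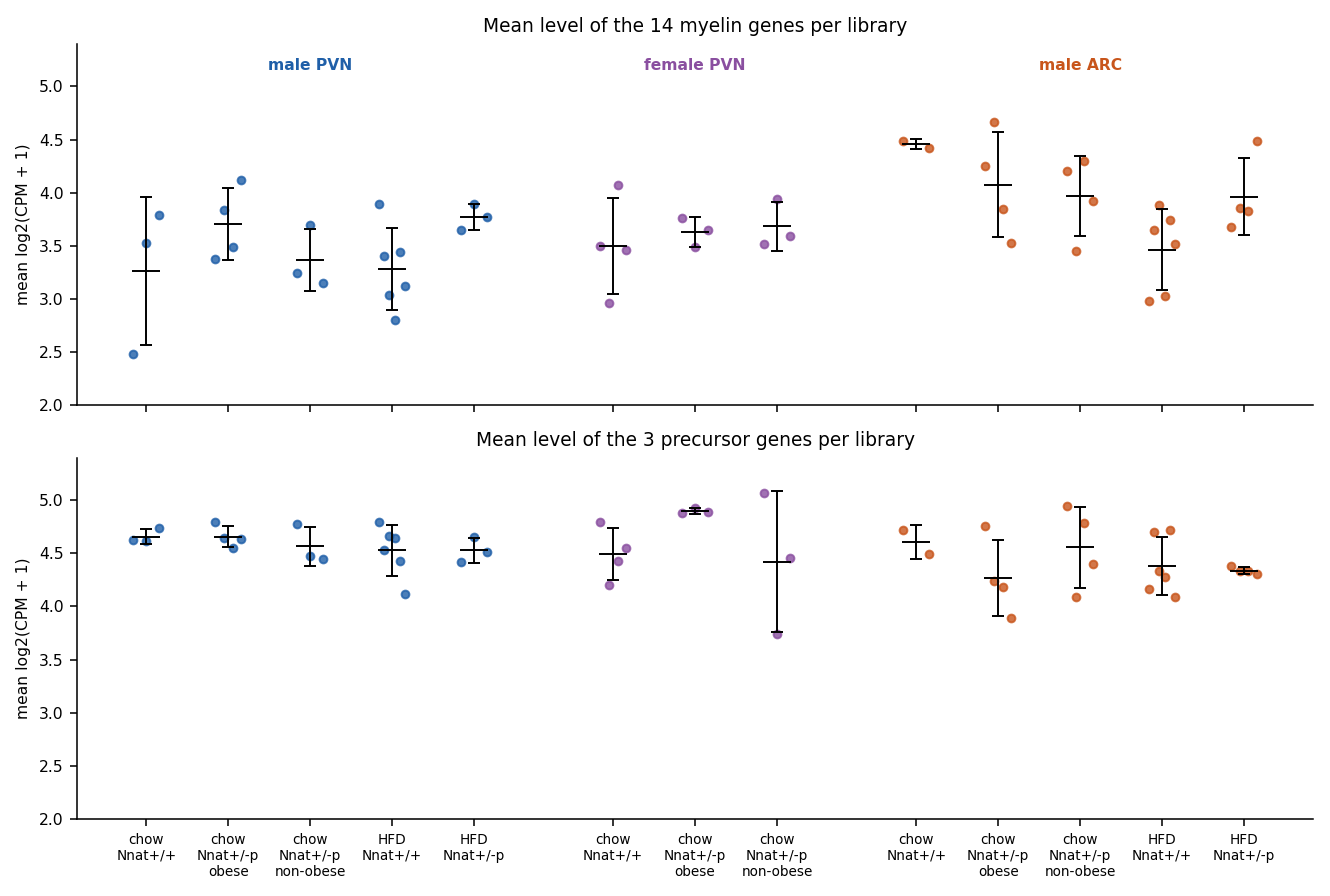
Mean log2(CPM + 1) over the 14 myelin genes and over the 3 precursor genes in each group: points are libraries, horizontal marks and bars the mean ± SD. The ARC libraries of HFD Nnat+/+ mice (2.98 to 3.88) lie below both ARC libraries of chow Nnat+/+ mice in the myelin score, and the precursor scores overlap.

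The first question was how HFD related to these genes in the ARC of Nnat+/+ males. The chow mice weighed 33.5 and 31.4 g and the HFD mice 37.4 to 43.9 g, so diet and body weight cannot be told apart. Of 36 genes tested, 4 were lower on HFD and none higher at an adjusted p under 0.25 by edgeR's quasi-likelihood test, the threshold for a call used throughout, beside 1.16% of all genes tested. The 4 were Mobp and Mbp, which compact the myelin membrane, Mal, a proteolipid that sorts membrane to myelin, and Bcas1, a marker of cells beginning to myelinate. At an unadjusted p under 0.05, 19 genes were lower and none higher, beside 8.54% of all genes, and the median log2 fold change was -0.68 over the 36 genes and 0.02 over all genes tested. In bulk tissue, fewer cells of a type and less RNA per cell cannot be told apart.

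Mbp stood at 478 and 389 CPM in the chow libraries and at 141 to 304.5 (median 206) CPM in the 6 HFD libraries, a log2 fold change of -1.09 (SE 0.24, adjusted p = 0.0724). Mobp stood at 169 and 139.9 CPM on chow and 38.4 to 95.15 (median 68.8) CPM on HFD, with a log2 fold change of -1.25 (SE 0.27, adjusted p = 0.0604). For both genes every HFD library lay below both chow libraries. Bcas1 gave 82.6 and 81.7 CPM on chow and 19.4 to 60.4 (median 36.8) CPM on HFD, with a log2 fold change of -1.15 (SE 0.30, adjusted p = 0.157). Mal gave 69.6 and 60.3 CPM on chow and 25.75 to 47.25 (median 33.5) CPM on HFD, with a log2 fold change of -0.91 (SE 0.25, adjusted p = 0.194). These groups did not overlap either, and the same separation, every HFD library below both chow libraries, was seen for 20 of the 37 genes, beside 6.31% of all genes tested. Replicate 15 (chow Nnat+/+), labelled PVN but with summed ARC neuron markers of 214 CPM, was not part of this comparison. Its Mbp, at 269 CPM, lay inside the HFD range. Its Mobp (98.9 CPM), Bcas1 (60.5 CPM) and Mal (48.0 CPM) lay just above the HFD ranges. Just outside the threshold lay Ermn, a cytoskeletal protein of myelin, at -1.225 (SE 0.39, adjusted p = 0.272), and the transcription factor Nkx6-2 at -0.89 (SE 0.29, adjusted p = 0.279).

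By role, 8 of 11 myelin structure genes were lower at an unadjusted p under 0.05 with a median of -1.09, as were 1 of 3 lipid genes, 3 of 6 transcription factors (Olig1, Sox10 and Nkx6-2), 1 of 3 differentiating genes and 6 of the 10 other mature genes tested. Cnp, the enzyme of non-compact myelin, stood at 101 and 87.6 CPM on chow and 40.5 to 84.2 (median 63.4) CPM on HFD. Mag, which joins myelin to the axon, stood at 26.3 and 27.3 CPM on chow and 6.78 to 21.9 (median 15.3) CPM on HFD. Both were separate between the diets and neither was called. Replicate 15, not compared here, lay inside the HFD range for both, at 83.5 CPM for Cnp and 15.45 CPM for Mag. Mog, on the outer face of the sheath, overlapped between the groups, at 6.8 and 7.425 CPM on chow and 1.76 to 8.45 (median 4.77) CPM on HFD. Neither Sox10, at 16.7 and 16.3 CPM on chow and 5.42 to 13.5 (median 7.65) CPM on HFD, nor Olig2 passed the threshold. Olig2 gave 8.35 and 11 CPM on chow and 4.655 to 11.9 (median 6.09) CPM on HFD. Myrf ran from 10.2 to 143.5 CPM over ARC libraries, the highest value being that of replicate 45 (HFD Nnat+/+). In this comparison it stood at 28.1 and 27.3 CPM on chow and 12.3 to 143.5 CPM on HFD. St18 stood at 14.85 and 11.6 CPM on chow and 13.8 to 33.5 CPM on HFD. Neither was among the factors lower on HFD.

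The 3 precursor genes were not among those called and none reached an unadjusted p under 0.05. Pdgfra stood at 42.1 and 40.4 CPM on chow and 33.3 to 53.4 (median 41.5) CPM on HFD (log2 fold change 0.02, SE 0.23). Cspg4 gave 15.8 and 8.02 CPM on chow and 7.23 to 13.3 (median 9.41) CPM on HFD (-0.31, SE 0.43), and Gpr17 gave 24.4 and 29.7 CPM on chow and 9.08 to 26.9 (median 21.2) CPM on HFD (-0.48, SE 0.39). The groups overlapped for all 3, and whether precursor and myelin genes differed in their response was not tested. Of lists named beside the 37 genes, 1 of 24 other myelin genes tested was called, Gpr37, a receptor of oligodendrocytes (-1.12, SE 0.27, adjusted p = 0.123), and 1 of 14 other precursor or early lineage genes, the transcription factor Nkx2-2 (-1.88, SE 0.43, adjusted p = 0.102), both lower on HFD. Among all genes tested 1.16% were called.

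Several other values moved with this diet comparison. All 6 ARC neuron markers tested were higher on HFD at an unadjusted p under 0.05, with Cartpt (log2 fold change 1.91) and Tbx3 (2.30) called, and the list's summed level was 84.4 and 95.3 CPM on chow and 239 to 862 CPM on HFD. Of the 5 astrocyte markers Gfap was called higher (1.90, SE 0.56, adjusted p = 0.231), and among 5 general neuron markers Rbfox3 (-0.81) and Snap25 (-0.64) were lower at an unadjusted p under 0.05 without being called. Of 5 microglia markers 1 was higher at that p, and no PVN neuron, endothelial, pericyte, fibroblast or ependymal marker passed it. TMM factors were 0.845 and 0.870 on chow and 0.596 to 0.895 on HFD. The part of these values in the result was not tested. The comparison rests on 2 chow libraries: leaving out replicate 33 or replicate 34 left 0 calls (3 and 12 genes called among all), and without replicate 44 (HFD) 2 calls were left, Mobp and Mbp. Mobp ranged from an adjusted p of 3.82e-06 to 0.755 over all alternatives tried and Mbp from 5.28e-06 to 0.794, always lower on HFD, and the same ranges were 0.000562 to 0.794 for Bcas1 and 0.0238 to 0.966 for Mal. DESeq2 called 7 genes and limma voom 15, all lower.

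**Figure D3:**
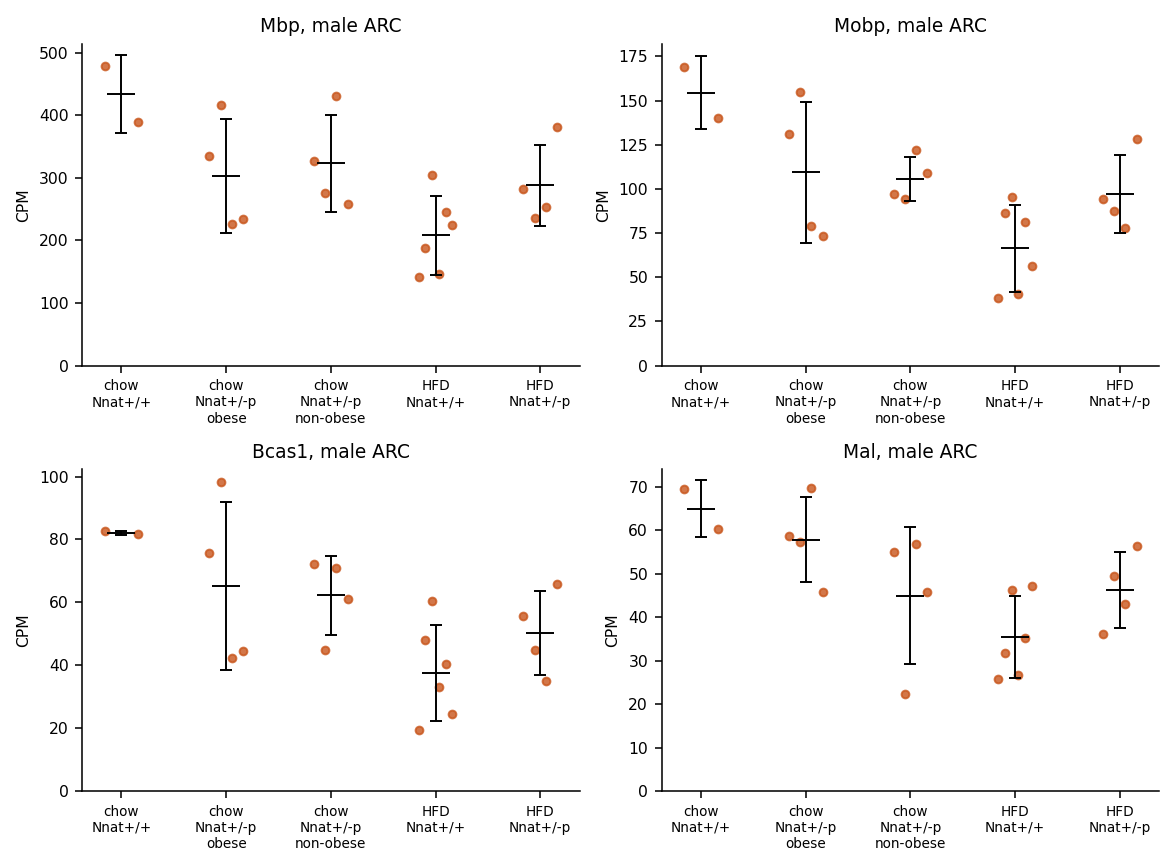
CPM of Mbp, Mobp, Bcas1 and Mal in the 20 male ARC libraries, by genotype, diet and weight class: points are libraries, horizontal marks and bars the mean ± SD. Mbp in HFD Nnat+/+ libraries (141 to 304.5 CPM) lies below both chow Nnat+/+ libraries (389 and 478 CPM), and Mobp, Bcas1 and Mal are separated in the same way.

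On HFD, Nnat+/-p and Nnat+/+ males were compared in the same nucleus. None of 36 genes was called by edgeR (beside 0.0127% of all genes tested), DESeq2 or limma voom. At an unadjusted p under 0.05, 9 genes were higher in Nnat+/-p and 1 lower by edgeR, beside 4.54% of all genes, with 8 and 0 by DESeq2 and 6 and 0 by limma voom. The median log2 fold change was 0.43 over the 36 genes and -0.02 over all genes, and all 14 myelin genes had values above 0. The smallest p was that of Cnp 0.58 (SE 0.21, adjusted p = 0.9988) among higher genes and of St18 -0.90 (SE 0.44, adjusted p = 0.9988), a transcription factor, among lower ones.

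Mbp in HFD Nnat+/-p libraries was 281, 236, 254 and 381 CPM, of which 1 exceeded the highest Nnat+/+ library. Mobp gave 94.4, 87.7, 78 and 128 CPM and Cnp 96.5, 82.2, 70.9 and 116 CPM. All overlapped the Nnat+/+ range, as did Mag (17.1, 12.5, 15.9 and 31.5 CPM) and Mog (11.6, 6, 5.74 and 13.7 CPM). Cryab, a small heat shock protein abundant in oligodendrocytes, was the 1 of 37 genes whose Nnat+/-p libraries all lay above the Nnat+/+ libraries (0.4% of all genes tested), at 25.05, 19.85, 20.9 and 19.1 CPM in Nnat+/-p and 9.035 to 16.6 (median 13.8) CPM in Nnat+/+ libraries, without being called (log2 fold change 0.68, SE 0.26). Precursor genes overlapped, Pdgfra at 39.7, 46.2, 46.7 and 36.8 CPM, Cspg4 at 10.4, 8.31, 7.56 and 9.54 CPM and Gpr17 at 18.6, 17.5, 19 and 18.4 CPM. Sox10 gave 10.7, 5.54, 14.3 and 8.875 CPM and Olig2 2.14, 9.23, 8.865 and 6.36 CPM in HFD Nnat+/-p. At an unadjusted p under 0.05, the PVN neuron markers Oxt (2.78) and Avp (2.27) and the general neuron markers Rbfox3 (0.53) and Snap25 (0.44) were higher in Nnat+/-p libraries, each at an adjusted p = 0.9988 by edgeR, and no marker on the other 7 lists passed that p. The part of these values in the result was not tested.

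The difference between the genotype effects on the 2 diets was tested as an interaction in the ARC, taking the chow effect as the mean of the obese and non-obese effects. None of 36 genes was called by edgeR (0.0127% of all genes), DESeq2 or limma voom, and 10 were above 0 at an unadjusted p under 0.05 by edgeR (3.83% of all genes), 8 by DESeq2 and 8 by limma voom, with none below. The median was 0.61 over the 36 genes and -0.03 over all genes. The smallest p belonged to Mobp 1.10 (SE 0.34, adjusted p = 0.9999) and, below 0, to St18 -0.88 (SE 0.69, adjusted p = 0.9999). The interaction and both preceding comparisons share the same Nnat+/+ libraries, so the opposite signs of diet and genotype values are not independent of each other.

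On chow, 36 genes were tested in the ARC and none was called between groups by edgeR, DESeq2 or limma voom. Between obese Nnat+/-p and Nnat+/+ (0.0205% of all genes called), 3 genes were lower at an unadjusted p under 0.05 (2.59% of all genes), 2 by DESeq2 and 3 by limma voom. The genes of smallest p in each direction were Mog 0.56 (SE 0.52, adjusted p = 1) and Mbp -0.54 (SE 0.22, adjusted p = 1). Between non-obese Nnat+/-p and Nnat+/+ (0.0136% called), 2 were lower at that p (1.9% of all genes), 2 by DESeq2 and 4 by limma voom, those of smallest p in each direction being Mog 0.49 (SE 0.52, adjusted p = 0.9999) and Mobp -0.55 (SE 0.24, adjusted p = 0.9999). Obese and non-obese Nnat+/-p mice (0.00682% called) had 0 genes at an unadjusted p under 0.05 by each of the 3 tools (4.25% of all genes), those of smallest p in each direction being Car2 0.45 (SE 0.24, adjusted p = 0.9989) and St18 -0.70 (SE 0.39, adjusted p = 0.9989). The astrocyte marker Gfap was called higher in obese Nnat+/-p than in Nnat+/+ libraries (2.84, adjusted p = 0.0149). At an unadjusted p under 0.05 by edgeR, 2 ARC neuron markers were also higher and 1 endothelial marker lower there. Between obese and non-obese libraries, 3 ARC neuron, 1 PVN neuron and 2 astrocyte markers were higher and 1 endothelial marker lower at that p, without a call. Non-obese against Nnat+/+ libraries had 1 astrocyte marker higher. The part of these values in the result was not tested. A difference between weight classes was not detectable in any of the 36 genes with this number of libraries.

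Mbp was 335, 416, 226 and 234 CPM in obese and 327, 276, 430.2 and 259 CPM in non-obese chow Nnat+/-p libraries. Cnp was 86.6, 104.5, 47.3 and 63.8 CPM in obese and 93.9, 71.4, 100.4 and 65.9 CPM in non-obese libraries. Within the obese group replicates 36 and 37 were high and 41 and 42 low for both genes. Mag showed the same split, at 19.2, 33.9, 9.41 and 5.2 CPM in obese and 18.2, 17.4, 14.8 and 15.2 CPM in non-obese libraries. Mog gave 11.3, 11.2, 14.5 and 5.43 CPM in obese and 8.675, 12.4, 8.46 and 10.7 CPM in non-obese libraries. Sox10 gave 14.9, 19.7, 4.07 and 4.25 CPM in obese and 10.9, 19.9, 16 and 14.25 CPM in non-obese libraries. Replicates 41 and 42 were again the lowest for Sox10. Olig2 gave 7.56, 10.8, 10.4 and 6.615 CPM in obese and 9.34, 5.59, 5.49 and 7.77 CPM in non-obese libraries. Among precursor genes Pdgfra was 46, 39.5, 47.3 and 38.5 CPM in obese and 46.9, 26.7, 54 and 39 CPM in non-obese libraries. Cspg4 was 15.6, 7.48, 4.58 and 16.3 CPM in obese and 19.1, 8.7, 14.8 and 10.7 CPM in non-obese libraries. Gpr17 was 24.2, 18.7, 21.1 and 3.78 CPM in obese and 29.1, 17.4, 23.1 and 19.1 CPM in non-obese libraries. The low Gpr17 value belonged to replicate 42, and the weight classes overlapped for every one of these genes.

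HFD Nnat+/-p males were also set beside obese chow Nnat+/-p males. In the ARC none of 36 genes was called by edgeR (1.27% of all genes) or DESeq2 and 1 by limma voom, Gsn, an actin-severing protein (log2 fold change 1.54, adjusted p = 0.230 by limma voom). At an unadjusted p under 0.05, 2 genes were higher by edgeR (8.89% of all genes) and by DESeq2, while limma voom had 2 higher and 2 lower. By edgeR those of smallest p in each direction were Gsn 1.02 (SE 0.37, adjusted p = 0.3505) and Qdpr -0.41 (SE 0.21, adjusted p = 0.5765). Leaving out replicate 53 gave 1 call beside 544 of all genes (200 with it), the factor Myrf (1.63, adjusted p = 0.190), which stood at 63.2, 81.7, 24.5 and 21.6 CPM in HFD and 18.4, 32.4, 12.2 and 10.2 CPM in obese chow Nnat+/-p libraries. The ARC neuron markers Tbx3 (1.16) and Cartpt (0.88) and the PVN neuron marker Oxt (4.155) were called higher in HFD libraries by edgeR. At an unadjusted p under 0.05 the ARC neuron markers Npy and Ghrh and the microglia marker C1qa were also higher and Lum was lower. The part of these values in the result was not tested.

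In male PVN no gene was called by edgeR in any of 7 comparisons. On chow 35 genes were tested, Trf and Tmem125 being too low. Obese Nnat+/-p against Nnat+/+ mice (0.0256% of all genes called) had 1 gene lower at an unadjusted p under 0.05 (3.52% of all genes), with 1 lower by DESeq2 and 1 in each direction by limma voom, those of smallest p in each direction being Tspan2 0.77 (SE 0.38, adjusted p = 0.9998) and Pdgfra -0.73 (SE 0.29, adjusted p = 0.9998). Non-obese Nnat+/-p against Nnat+/+ mice (0.0128% called, 2.56% at an unadjusted p under 0.05) gave the same counts by all 3 tools, with Tspan2 0.76 (SE 0.40, adjusted p = 0.9999) and Ndrg1 -0.85 (SE 0.38, adjusted p = 0.9999) of smallest p in each direction. Both values of the latter comparison rest on single libraries, Tspan2 being 0.16 without replicate 18 (non-obese Nnat+/-p) and Ndrg1 -0.29 without replicate 15, the Nnat+/+ library that goes against its label. Tspan2 is a tetraspanin of differentiating cells, and both comparisons share the Nnat+/+ libraries. Obese against non-obese Nnat+/-p mice (0% called, 1.66% at an unadjusted p under 0.05) had 1 gene higher by edgeR, 2 by DESeq2 and 5 by limma voom at that p, with Bcas1 0.90 (SE 0.35, adjusted p = 1) and Gsn -0.78 (SE 0.54, adjusted p = 1) of smallest p in each direction.

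With the HFD groups included, all 37 genes were tested. Between Nnat+/-p and Nnat+/+ on HFD (0.00569% of all genes called), 2 genes were higher at an unadjusted p under 0.05 (0.99% of all genes), 3 by DESeq2, and 9 higher and 1 lower by limma voom, those of smallest p in each direction being Mbp 0.54 (SE 0.25, adjusted p = 1) and Gpr17 -0.50 (SE 0.30, adjusted p = 1). The groups overlapped for all 37 genes (0.688% of all genes tested had every Nnat+/-p library above and 0.859% below the Nnat+/+ libraries). HFD against chow in Nnat+/+ mice (1.43% called) had 1 gene higher and 3 lower at that p (10.3% of all genes), with 1 and 4 by DESeq2 and 0 and 4 by limma voom, those of smallest p in each direction being Tspan2 0.68 (SE 0.29, adjusted p = 0.413) and Plekhb1 -0.53 (SE 0.23, adjusted p = 0.414). Without replicate 15, whose neuron markers go against its label, Tspan2 was called (0.91, adjusted p = 0.229, beside 1083 of all genes) and Plekhb1 was -0.17 (adjusted p = 0.802), and without replicate 23 Mobp was called lower on HFD (-0.95, adjusted p = 0.209, beside 159 of all genes). With replicates 15 and 24 left out, the other 6 comparisons still gave 0 calls. In this diet comparison the ARC neuron marker Pomc (-4.18), the fibroblast marker Lum (-4.32) and the general neuron marker Rbfox3 (-0.93) were called lower on HFD. Its chow mice weighed 31.4 to 33.5 g and its HFD mice 37.4 to 42.9 g, so here too diet and body weight cannot be told apart. HFD Nnat+/-p against obese chow Nnat+/-p mice (0.262% called) had 2 genes lower at that p (7.53% of all genes) by each tool, with 2 higher by limma voom only, those of smallest p in each direction being Pdgfra 0.48 (SE 0.24, adjusted p = 0.669) and Gpr17 -0.98 (SE 0.32, adjusted p = 0.491). Gpr17, the receptor of committed precursors, was called lower by DESeq2 (-1.05, adjusted p = 0.106) and by limma voom (-1.01, adjusted p = 0.183), which called 432 and 372 genes in all, against 46 by edgeR. Lum was called lower here too (-5.03). The interaction of genotype and diet (0% called) had 1 gene on each side at that p (3.85% of all genes), 2 on each side by DESeq2 and 3 above and 2 below 0 by limma voom, those of smallest p in each direction being Pdgfra 0.82 (SE 0.31, adjusted p = 0.9999) and Tspan2 -0.97 (SE 0.41, adjusted p = 0.9999).

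Among myelin genes of the male PVN, Mbp stood at 110.1, 176 and 269 CPM in chow Nnat+/+, 194, 359, 156 and 245 CPM in obese and 145.5, 196 and 129.8 CPM in non-obese Nnat+/-p, 109.5 to 261 (median 142.5) CPM in HFD Nnat+/+ and 250.5, 233 and 210.5 CPM in HFD Nnat+/-p libraries. Cnp stood at 26.7, 58.2 and 83.5 CPM in chow Nnat+/+, 58.3, 107, 28.6 and 69.1 CPM in obese and 42.7, 70.7 and 39.8 CPM in non-obese Nnat+/-p, 38.5 to 69.8 (median 57.2) CPM in HFD Nnat+/+ and 90.6, 65.9 and 66.8 CPM in HFD Nnat+/-p libraries. The highest Mbp and Cnp values both belonged to replicate 17, an obese Nnat+/-p library. For every gene given by library in male PVN, the last chow Nnat+/+ value is that of replicate 15, which went against its label. Mag stood at 19.9, 5.31 and 15.45 CPM in chow Nnat+/+, 12.6, 13.1, 10.1 and 25.6 CPM in obese and 3.37, 11.2 and 8.08 CPM in non-obese Nnat+/-p, 6.77 to 15.1 (median 12.5) CPM in HFD Nnat+/+ and 8.38, 17.7 and 20.1 CPM in HFD Nnat+/-p libraries. Mog stood at 2.26, 4.52 and 1.85 CPM in chow Nnat+/+, 3.11, 2.76, 2.89 and 11.65 CPM in obese and 4.31, 1.45 and 3.38 CPM in non-obese Nnat+/-p, 0.564 to 6.7 (median 3.68) CPM in HFD Nnat+/+ and 3.63, 6.62 and 6.35 CPM in HFD Nnat+/-p libraries. Replicate 21 alone set the upper end of Mog in the obese group, and neither gene separated any pair of groups compared. Of the lineage factors, Sox10 stood at 8.36, 15.7 and 20.15 CPM in chow Nnat+/+, 10.7, 20.2, 15 and 7.85 CPM in obese and 8.99, 17 and 8.08 CPM in non-obese Nnat+/-p, 5.08 to 13.8 (median 7.99) CPM in HFD Nnat+/+ and 17.9, 8.78 and 14.3 CPM in HFD Nnat+/-p libraries. Olig2 stood at 14.5, 3.34 and 15.1 CPM in chow Nnat+/+, 8.75, 7.075, 3.47 and 2.785 CPM in obese and 5.62, 14.5 and 6.385 CPM in non-obese Nnat+/-p, 3.5 to 12 (median 6.27) CPM in HFD Nnat+/+ and 10.2, 9.45 and 6.48 CPM in HFD Nnat+/-p libraries. Both varied within groups as much as between them.

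Pdgfra in the male PVN stood at 35.5, 61.1 and 59.6 CPM in chow Nnat+/+, 28.4, 41.2, 28.1 and 28.6 CPM in obese and 45.9, 31.2 and 30.8 CPM in non-obese Nnat+/-p, 30.02 to 50.1 (median 39.2) CPM in HFD Nnat+/+ and 45, 49.97 and 42.4 CPM in HFD Nnat+/-p libraries. The HFD Nnat+/-p libraries all lay above the obese chow Nnat+/-p libraries for this receptor of precursors (4.74% of all genes tested), without a call. Cspg4 stood at 17.4, 17.1 and 9.74 CPM in chow Nnat+/+, 30.1, 16.7, 14.75 and 19.2 CPM in obese and 18.2, 18.8 and 14.65 CPM in non-obese Nnat+/-p, 8.85 to 20.7 (median 17.5) CPM in HFD Nnat+/+ and 16.2, 22.7 and 17.6 CPM in HFD Nnat+/-p libraries. Its lowest library, replicate 28, lay well under the rest of its group. Gpr17 stood at 21.2, 12 and 28.2 CPM in chow Nnat+/+, 22.2, 20.02, 27.2 and 24.8 CPM in obese and 21.7, 16.3 and 19.7 CPM in non-obese Nnat+/-p, 11.9 to 23.3 (median 17) CPM in HFD Nnat+/+ and 11.45, 12.3 and 13.6 CPM in HFD Nnat+/-p libraries. All 3 HFD Nnat+/-p libraries lay below all 4 obese chow Nnat+/-p libraries for Gpr17 (2.5% of all genes tested).

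In female PVN 37 genes were tested on chow and none was called by edgeR, DESeq2 or limma voom. Obese Nnat+/-p against Nnat+/+ mice (0.0129% of all genes called) had 1 gene higher and 1 lower at an unadjusted p under 0.05 (3.18% of all genes), with 2 and 1 by DESeq2 and 4 and 1 by limma voom, those of smallest p in each direction being Plekhb1 1.01 (SE 0.33, adjusted p = 0.9997) and Hapln2 -4.07 (SE 1.84, adjusted p = 0.9997). Non-obese Nnat+/-p against Nnat+/+ mice (0.00646% called) had 2 higher at that p (4% of all genes), with 3 higher and 2 lower by DESeq2 and 1 higher by limma voom, those of smallest p in each direction being Mal 0.90 (SE 0.36, adjusted p = 0.9999) and Aspa -3.745 (SE 2.12, adjusted p = 0.9999). Obese against non-obese Nnat+/-p mice (0% called) had 2 lower at that p (3.06% of all genes), with 2 lower by DESeq2 and 1 higher by limma voom, those of smallest p in each direction being Mobp 0.61 (SE 0.39, adjusted p = 1) and Hapln2 -4.59 (SE 1.92, adjusted p = 1). Hapln2, a link protein of nodes of Ranvier, rested on single libraries, with 2.565, 0, 18.8 and 3.155 CPM in Nnat+/+, 0.92, 0.0736 and 0.147 CPM in obese and 0.716, 21.7 and 3.29 CPM in non-obese libraries. Aspa, which releases acetate for myelin lipids, was likewise uneven, at 1.91, 0, 19.97 and 0.7795 CPM, 1.27, 0.0736 and 2.79 CPM and 0.644, 0 and 0.647 CPM in the same groups.

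Mbp in female PVN was 148.5, 86.1, 350.1 and 135 CPM in Nnat+/+, 247, 279.6 and 223 CPM in obese and 167, 214 and 185 CPM in non-obese libraries. Cnp was 65, 78.4, 45.2 and 51.4 CPM in Nnat+/+, 43.6, 90.7 and 83.1 CPM in obese and 52.1, 39.65 and 55.25 CPM in non-obese libraries. Every obese library exceeded every non-obese library for Mbp (4.78% of all genes tested), whereas the groups overlapped for Cnp. Mag was 7.6, 20.5, 28.5 and 15.85 CPM in Nnat+/+, 18.75, 15.5 and 20.1 CPM in obese and 13.7, 28.7 and 12.5 CPM in non-obese libraries. Mog was 2.97, 0.137, 7.59 and 0.223 CPM in Nnat+/+, 2.41, 0.515 and 2.46 CPM in obese and 4.8, 36 and 1.51 CPM in non-obese libraries. Replicate 10, the high non-obese library for Mog, also had 8 of the 37 genes without a count and the highest Ermn, at 73.0 CPM. Sox10 was 15.2, 31.6, 25.2 and 11.6 CPM in Nnat+/+, 10.6, 16.5 and 18.9 CPM in obese and 11.5, 9.88 and 11.6 CPM in non-obese libraries. Olig2 was 8.38, 0, 15 and 9.61 CPM in Nnat+/+, 2.76, 10.7 and 9.515 CPM in obese and 5.585, 1.81 and 0.916 CPM in non-obese libraries. Sox10 and Olig2 overlapped between all 3 groups. Pdgfra was 37.75, 20.6, 29.3 and 38.3 CPM in Nnat+/+, 36, 45.3 and 51 CPM in obese and 39.2, 54.95 and 60.2 CPM in non-obese libraries. Cspg4 was 18.9, 16, 9.19 and 17 CPM in Nnat+/+, 24.3, 18.9 and 23.2 CPM in obese and 22.6, 41.6 and 10.5 CPM in non-obese libraries. Gpr17 was 26.5, 16, 30.9 and 17.2 CPM in Nnat+/+, 26.25, 29.65 and 19.6 CPM in obese and 38.6, 0 and 14.1 CPM in non-obese libraries. All non-obese libraries lay above all Nnat+/+ libraries for Pdgfra (1.81% of all genes) and all obese libraries lay above them for Cspg4 (3.59%), and none of these differences was called.

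**Figure D4:**
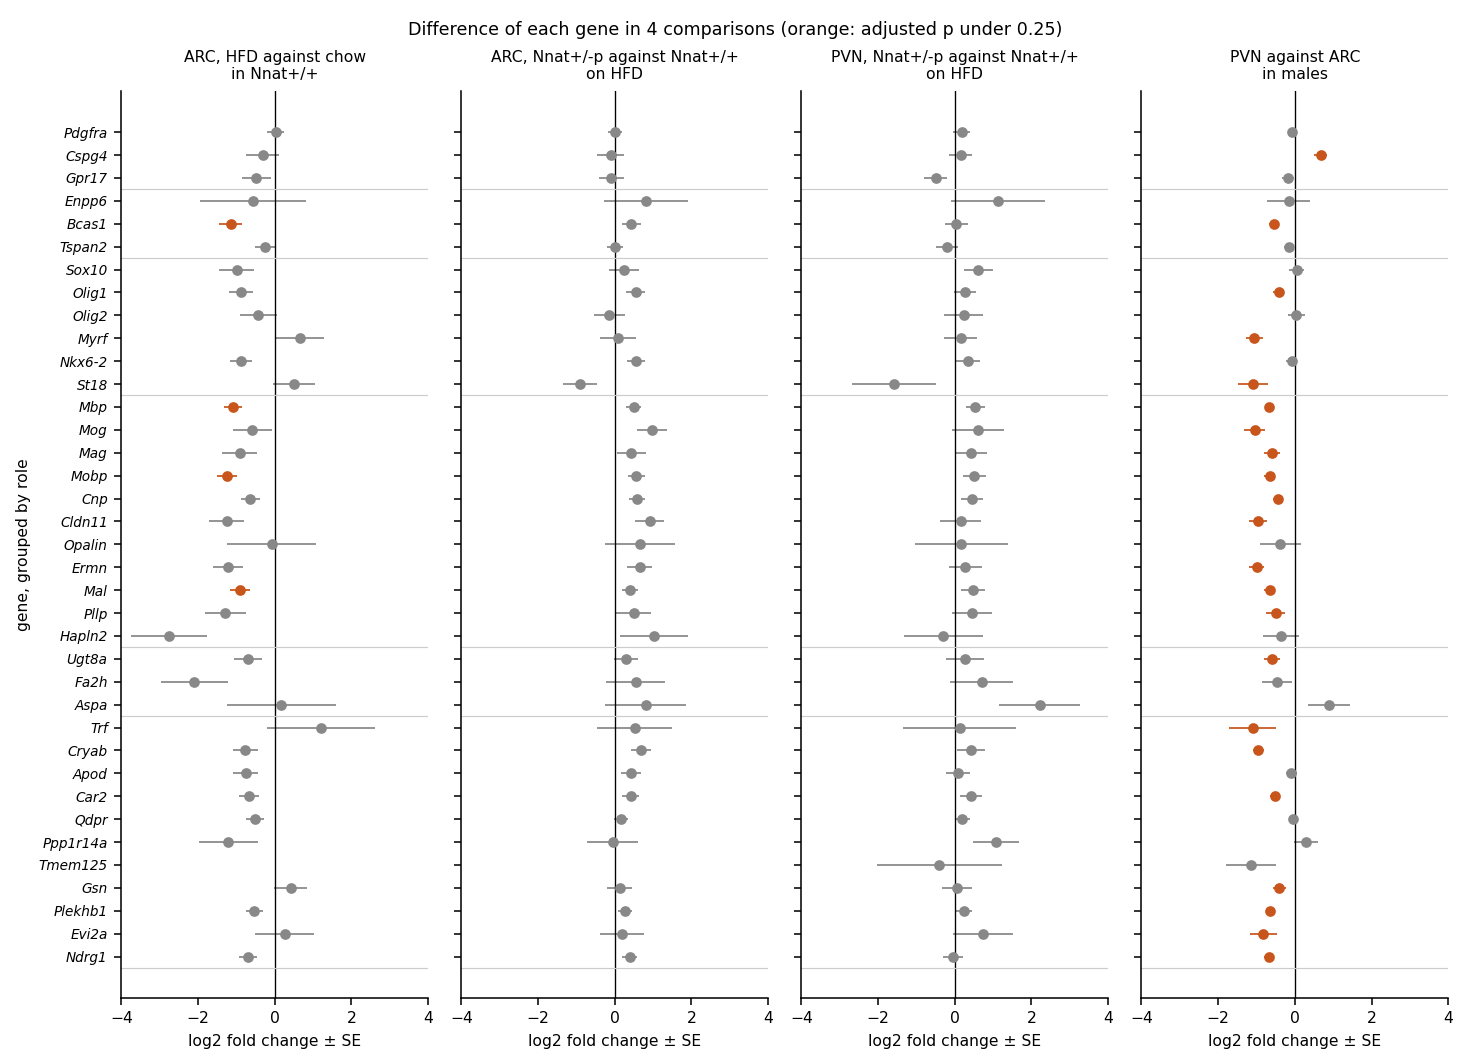
Log2 fold change ± SE of each gene tested in 4 comparisons, grouped by role, with genes at an adjusted p under 0.25 in orange; the axis runs from -4 to 4. Mobp (-1.25), Mbp (-1.09), Bcas1 (-1.15) and Mal (-0.91) are called in the ARC diet comparison of Nnat+/+ mice.

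Male PVN and ARC libraries were compared in one fit of the 10 male groups, as the mean over the 5 groups of each nucleus. Of 37 genes, 22 were called, 21 lower and 1 higher in PVN, beside 34.4% of all genes tested, and at an unadjusted p under 0.05 the counts were 19 lower and 1 higher, beside 28.7% of all genes. The median log2 fold change was -0.50 over the 37 genes, whereas it was 0.13 over all genes tested. By role, 9 of 11 myelin structure genes and 1 of 3 lipid genes were lower, while of 3 precursor genes only Cspg4 was called, and it was higher in PVN. Each nucleus was a separate count table, so nucleus and table cannot be told apart.

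Cryab gave a log2 fold change of -0.95 (SE 0.15, adjusted p = 3.49e-06), with 5.39 to 19.0 CPM (median 11.2 CPM) in PVN and 9.04 to 42.4 CPM (median 19.7 CPM) in ARC. Plekhb1, a membrane protein with a pleckstrin homology domain, gave -0.64 (SE 0.11, adjusted p = 9e-06), with medians of 86.85 and 133 CPM. Ndrg1, a protein of Schwann cells and oligodendrocytes, gave -0.68 (SE 0.12, adjusted p = 1.14e-05), with medians of 31.4 and 50.3 CPM. The ranges of the nuclei overlapped for all of them. Mbp gave -0.67 (SE 0.12, adjusted p = 2.42e-05), at 109.5 to 359 CPM (median 176 CPM) in PVN and 141 to 478 CPM (median 267.5 CPM) in ARC. Cspg4, the single gene higher in PVN, gave 0.67 (SE 0.16, adjusted p = 0.00249), at 8.85 to 30.1 CPM (median 17.4 CPM) in PVN and 4.58 to 19.1 CPM (median 9.78 CPM) in ARC. Pdgfra (-0.06, SE 0.10) and Gpr17 (-0.18, SE 0.15) were not called. All 4 pericyte and 4 endothelial markers were also called higher in PVN, and their part in the Cspg4 value was not tested. The other genes lower in PVN were Mog, Ermn, Cldn11, Mal, Mobp, Mag, Cnp and Pllp of the myelin sheath, Ugt8a of myelin lipid synthesis, Bcas1, the factors Myrf, St18 and Olig1, and Car2, Evi2a, Gsn and Trf.

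Beyond the 37 genes, 2 of 24 other myelin genes tested were higher in PVN (Elovl7 and Nfasc) and 7 lower (Padi2, Gpr37, Cd9, Gjc3, Omg, Tmem88b and Gamt), from -1.25 for Padi2 to 0.77 for Elovl7. Of 14 other precursor or early lineage genes, 2 were higher (Vcan 0.44, Pcdh15 0.29) and 3 lower (Lhfpl3 -0.96, Ptprz1 -0.46, Sox8 -0.38). Both lists were called at about the share of all genes tested in this comparison (34.4%). Markers of other cells differed as well: all 6 ARC neuron markers tested, 4 of 5 astrocyte and 3 of 5 microglia markers were lower in PVN, and all 5 PVN neuron, 4 endothelial and 4 pericyte markers were higher. The part of these differences in the result was not tested. With HFD Nnat+/+ libraries only, 5 genes were called (beside 1488 of all genes, against 7355 over all groups), Cspg4 higher and Cryab, Plekhb1, Myrf and Gsn lower, and Mbp (-0.41, adjusted p = 0.393) and Ndrg1 (-0.27, adjusted p = 0.653) were no longer among them, while leaving out single libraries gave 20 to 24 calls. Over the 33 libraries that share genotype, diet and body weight across nuclei, 20 genes were called, beside 6509 of all genes. With the shared weight as a block 21 were called, beside 5615 of all genes, and Cspg4 was again the 1 higher gene in both.

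**Figure D5:**
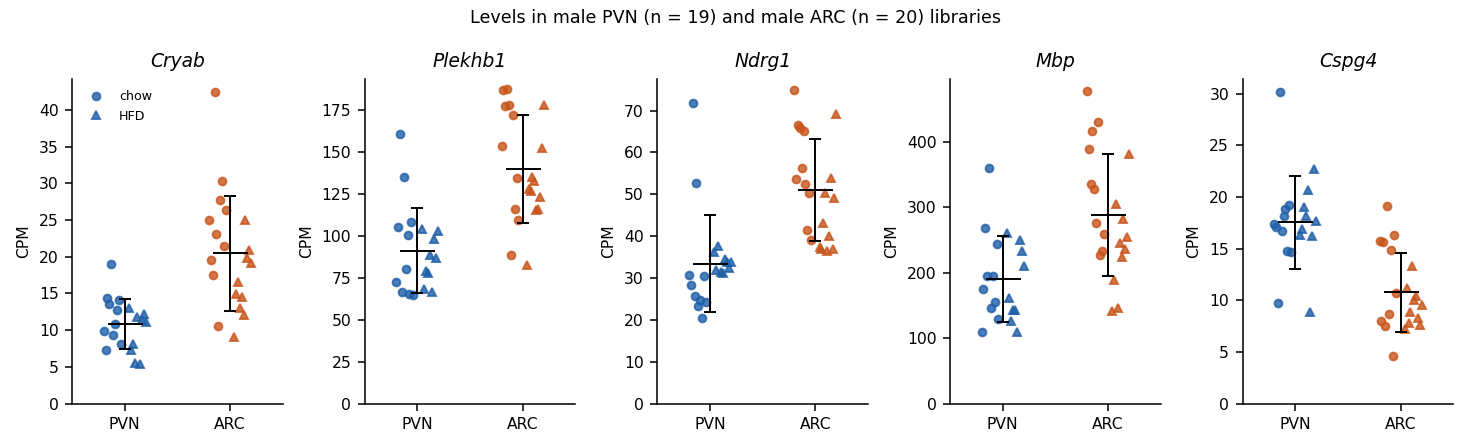
CPM of Cryab, Plekhb1, Ndrg1, Mbp and Cspg4 in 19 male PVN and 20 male ARC libraries: circles are chow and triangles HFD libraries, horizontal marks and bars the mean ± SD over each nucleus. Mbp spans 109.5 to 359 CPM in PVN and 141 to 478 CPM in ARC, and Cspg4 lies higher in PVN.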

How the data were processed

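PVN and ARC tissue was laser-captured from cresyl violet-stained sections, and libraries were made with the SMARTer Stranded Total RNA-Seq Pico v2 kit and sequenced as single-end 50-base reads. The deposited values are raw read counts per Ensembl gene, with no normalization, in 3 tables (female PVN, male PVN and male ARC). The submitters' processing notes name STAR 2.5.0a and GRCm38, while the counting tool, annotation release and strand setting are not given in the sources used here. Symbols were matched for 53274 of 53379 genes.

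From the deposited counts, CPM with one TMM scaling over 49 libraries were computed, and scores are means of log2(CPM + 1). Comparisons between groups used edgeR 4.0.16 (R 4.3.3): filterByExpr (minimum count 10) removed low genes, the rest were fitted with glmQLFit and glmQLFTest, and p-values adjusted by Benjamini-Hochberg over all genes tested, with a call at an adjusted p under 0.25. One fit covered all groups of a table (chow groups only for chow comparisons), and 1 fit the 10 male groups of both nuclei. The fits were tested on simulated counts. Alternatives were DESeq2 1.42.0, limma 3.58.1 voom with quality weights, edgeR with the size factors of DESeq2, a filter that kept any gene above a total count of 1, only the groups compared, an adjusted p under 0.05, the libraries of low total count included, replicates 15 and 24 left out, replicates 39 and 40 or 1 and 2 summed, a pseudocount of 0.25 and leaving out each replicate.

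Fold changes are printed for genes called (where over 8, the 4 of smallest p in each direction) or, with no call, for the gene of smallest p in each direction; Mbp, Mog, Mag, Cnp, Sox10, Olig2, Pdgfra, Cspg4 and Gpr17 are given by library, and other genes named with values were chosen after their values were seen. The 37 genes and all lists were chosen with earlier results of these data known. Replicates are numbered once across the series and no 2 groups share a number, so the comparisons as reported use no pairing. For PVN against ARC, body weight within genotype and diet was tried as a block (17 pairs, whose deviations from the group means correlated over genes at -0.05 to 0.22, above 0.1 in 4). Gene lengths and overlaps come from a GENCODE vM21 annotation of GRCm38.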

Additional observations from a re-analysis of the deposited data

Results flagged for a closer look

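Within groups of 4 to 10 libraries, 98 sets of values over 14 measures were searched for a single library far from the others, and 6 were found, where chance gives about 1 in 20. Replicate 23 (male PVN, HFD Nnat+/+) stood above its group in 3 genes, with Mbp at 261 CPM (next highest 161 CPM), Mobp at 102.6 CPM (next 55.3 CPM) and Bcas1 at 63.9 CPM (next 34.4 CPM). In the same group replicate 28 had the lowest Cspg4, at 8.85 CPM (next 16.3 CPM). Among obese Nnat+/-p male PVN libraries, replicate 21 had Mog at 11.65 CPM (next 3.11 CPM) and replicate 17 had Pdgfra at 41.2 CPM (next 28.6 CPM).

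The 4 libraries left out of every comparison also held counts of these genes. Their CPM and scores were scaled to library size without TMM, unlike those of the libraries used. Replicate 32 had 36 of the 37 genes above 3 counts, with a myelin score of 4.05, a precursor score of 4.79, Mbp at 269 CPM and Sim1 at 159.5 CPM. Replicate 35 had 9 of the genes above 3 counts among 271324 counts, replicate 7 had 7 among 812815 counts, and replicate 5 had 1 among 2302 counts. Replicate 35, labelled ARC, had Sim1 at 40.5 CPM and Pomc at 0 CPM, whereas Sim1 reached at most 9.04 CPM in the ARC libraries used. Its label gives the body weight of replicate 15. Replicate 7 is labelled female but held 19 Uty, 25 Ddx3y and 3 Xist counts, with Pomc at 151 CPM.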

How the results depend on the processing

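None of the fold changes printed by the rule for called genes and genes of smallest p changed sign under any alternative. Medians over the genes did in some comparisons. For obese Nnat+/-p against Nnat+/+ in the ARC the median went from -0.23 to 0.10 with replicate 35 included. For non-obese Nnat+/-p against Nnat+/+ in male PVN it went from -0.12 to 0.12 without replicates 15 and 24. The number of genes called for HFD against chow in ARC Nnat+/+ libraries, 4 as reported, was 7 with DESeq2, 8 with every gene above a total count of 1, 15 with limma voom, 13 with only the groups compared, 0 with replicate 35 included, 0 at an adjusted p under 0.05 and 0 to 5 with each replicate left out. Over all genes the same comparison called 182 as reported, 336 with DESeq2, 547 without the filter, 700 with limma voom, 499 with replicate 35 and 678 with only the groups compared. Replicate 35 is labelled ARC but had Sim1 at 40.5 CPM and Pomc at 0 CPM, both without TMM. Counts of 0 became 1 in male PVN for HFD against chow in Nnat+/+ without the filter (Aspa, beside 1134 of all genes) and without replicates 15 and 24 (Tspan2, beside 974, against 251 as reported; 0 to 1 with each replicate left out), and for HFD against obese chow Nnat+/-p with DESeq2 and limma voom (Gpr17). In the ARC the latter became 1 without the filter (Myrf), with limma voom (Gsn) and with only the groups compared (Myrf; 0 to 1 with each replicate left out), and the interaction became 2 without the filter, Mobp (1.09, adjusted p = 0.137) and Mbp (0.96, adjusted p = 0.137). In female PVN, including the libraries of low total count gave 1 call for obese Nnat+/-p against Nnat+/+ (Olig2) and 2 for obese against non-obese (Olig2 and Hapln2), beside 936 and 622 of all genes against 2 and 0 as reported. PVN against ARC, 22 as reported, gave 5 with HFD Nnat+/+ libraries only, 18 at an adjusted p under 0.05, 20 to 24 with each replicate left out, and 22 with the chow wild types and replicates 39 and 43 left out, an alternative chosen after seeing the data. Apart from the replicates left out and the tests' own thresholds, the cause of these changes was not tested. A pseudocount of 0.25 moved 6 group scores beyond 1 SD. Replicate numbers run once through the series and pair no groups. Pairing PVN and ARC libraries by genotype, diet and body weight was also chosen after seeing the data. It gave 21 calls with the weight as a block (5615 of all genes) and 20 over the same 33 libraries without it (6509 of all genes). Replicates 1 and 2 summed gave 0 calls in each female comparison. Genes under a median of 10 counts, such as Aspa and Opalin, are limited by depth.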
